A study of Mus musculus with 2 samples.

Results

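The urea cycle enzymes Cps1, Otc, Ass1, Asl and Arg1 and the tyrosine breakdown enzymes Tat, Hpd, Hgd and Fah were followed in RNA from embryonic mouse hearts. They are 9 of the 55348 genes in the count tables, taken by symbol, and they were selected on the ratio of reads between the same 2 libraries, so their ratios are described here and not tested. Both libraries came from untreated hearts of strain 129sv at E13.5, in mid-gestation. The wild-type library carried no Lmna mutation, and the other came from Lmna H222P/H222P hearts, homozygous for a missense mutation of the lamin A/C gene that is used to model laminopathy of heart and muscle. How many hearts were pooled was not given in the labels. The study concerned the histone demethylase LSD1 in this disease, and the comparison is that of mutant with wild-type hearts. With 1 library per genotype there was no replicate check, no p-value was computed, and every interval below covers counting error alone.

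The urea cycle turns ammonia, released when amino acids are broken down, into urea. Cps1 and Otc work in the mitochondria of hepatocytes and make citrulline. Ass1, Asl and Arg1 work in the cytosol and carry citrulline through argininosuccinate and arginine to urea and ornithine. Only liver runs the whole cycle at a high rate, whereas Ass1 and Asl are also used elsewhere to regenerate arginine for nitric oxide synthases. Tyrosine is broken down mainly in liver: Tat removes its amino group, Hpd makes homogentisate, Hgd opens the ring, and Fah splits the last intermediate into fumarate and acetoacetate. Loss of Hgd causes alkaptonuria and loss of Fah causes hereditary tyrosinemia in humans. In rodent liver, Tat is known as a gene switched on around birth.

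The promoters of 4 of these genes are shown because their transcripts span the patterns described below. Otc and Hgd were nearly absent from the wild-type library and not from the H222P library, Fah was present in both, and Tat was at the limit of detection in both. The bases are the 250 before the start site in RefSeq (GRCm38.p6, the C57BL/6J reference and not the 129sv genome), 5′ to 3′ on the strand of the gene. They lie at chrX:10252055-10252304 (plus strand) for Otc, chr16:37579903-37580152 (plus) for Hgd, chr7:84605943-84606192 (minus) for Fah and chr8:109990186-109990435 (plus) for Tat. Capitals mark matches to the motifs named after them.
Otc: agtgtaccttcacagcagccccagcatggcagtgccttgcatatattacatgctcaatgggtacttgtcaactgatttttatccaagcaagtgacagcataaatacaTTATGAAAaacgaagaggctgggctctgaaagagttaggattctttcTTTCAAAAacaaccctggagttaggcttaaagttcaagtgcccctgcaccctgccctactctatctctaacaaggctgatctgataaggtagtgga
Hgd: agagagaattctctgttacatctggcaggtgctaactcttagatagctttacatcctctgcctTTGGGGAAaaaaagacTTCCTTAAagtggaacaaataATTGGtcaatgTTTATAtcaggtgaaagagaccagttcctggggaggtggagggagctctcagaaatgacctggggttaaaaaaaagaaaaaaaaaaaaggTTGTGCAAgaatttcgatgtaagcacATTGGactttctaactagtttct
Fah: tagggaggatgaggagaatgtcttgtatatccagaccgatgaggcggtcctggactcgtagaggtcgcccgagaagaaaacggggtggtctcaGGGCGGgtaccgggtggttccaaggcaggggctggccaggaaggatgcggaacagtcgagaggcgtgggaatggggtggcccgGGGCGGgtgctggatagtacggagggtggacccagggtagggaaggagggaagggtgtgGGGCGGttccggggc
Tat: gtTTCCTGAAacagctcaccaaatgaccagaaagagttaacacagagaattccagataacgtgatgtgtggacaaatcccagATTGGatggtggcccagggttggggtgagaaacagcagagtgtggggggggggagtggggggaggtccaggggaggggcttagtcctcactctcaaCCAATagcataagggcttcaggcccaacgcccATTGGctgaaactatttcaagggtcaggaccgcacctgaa

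RefSeq promoters were matched for 6 of the 9 genes, namely these 4, Ass1 and Hpd. Both strands were searched for TATAAA, the letters of the classical core promoter box, for the GC box GGGCGG and for the motif CCAAT, for the motif TTNNGNAA and its stricter palindrome TTGCGCAA (both of the kind bound by C/EBP factors), CAAAGTCCA (of the kind bound by HNF4) and an HNF1-type motif. Otc held TTNNGNAA matches starting 143 and 96 bases before the start site. Hgd held 3 of them, at 187, 171 and 49 bases, along with CCAAT boxes at 150 and 23 bases and a TATAAA match on the opposite strand at 139 bases. Fah held 3 GC boxes, at 157, 74 and 15 bases, and none of the other motifs. Tat held 3 CCAAT boxes, at 168, 72 and 40 bases, and 1 TTNNGNAA match at 248 bases.

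Ass1 and Hpd each held 1 GC box, at 63 and 55 bases. The GC box was therefore found in 3 of the 6 promoters, against 32.7% of all 32851 promoters of the same length. In Ass1 the 63 bases next to the RefSeq start site, which hold its GC box, lie in an annotated exon of the gene. In Hpd 4 bases do, and its GC box lies outside them. TTNNGNAA occurred in 3 of 6 against 36.8% of all, CCAAT in 2 of 6 against 33.8%, and TATAAA in 1 of 6 against 12.4%. The palindrome, the HNF4-type and the HNF1-type motifs were in none of the 6, and in 0.164%, 0.384% and 0.0091% of all promoters. These are letter matches in 1 window and say nothing about bound factors. No motif overlapped another in the 6 promoters.

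The promoters differed more in CpG content. The observed number of CG dinucleotides over that expected from base composition was 0.08 in Otc, 0.11 in Hgd, 0.17 in Tat and 0.29 in Hpd, all below the median of 0.37 over all promoters. It was 0.64 in Ass1, whose window includes 63 bases of an annotated exon, and 0.79 in Fah. Of all promoters, 12.6% had a lower ratio than Otc and 80.1% a lower ratio than Fah. The 2 promoters above the median belonged to genes with 83 and 240 wild-type reads, and the 4 below it to genes with at most 2. This is a description of 6 genes.

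**Figure D1:**
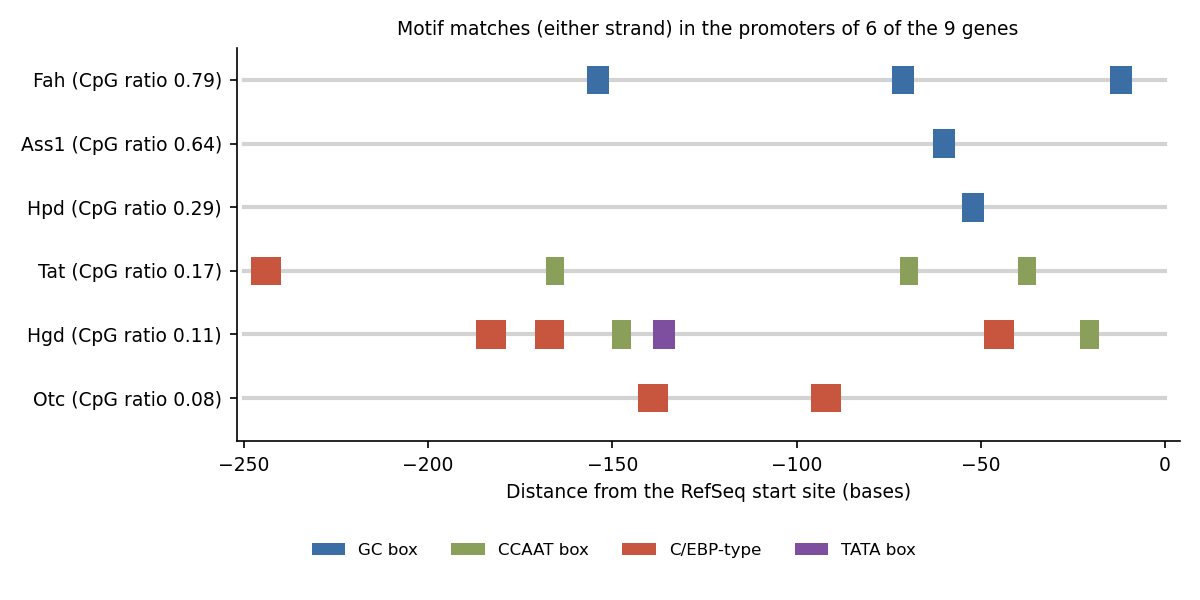
Motif matches in the 250 bases before the RefSeq start site of 6 genes, plotted by distance from the start site (bases) and ordered by CpG ratio, the observed over the expected number of CG dinucleotides. Fah and Ass1, with ratios of 0.79 and 0.64, held GC boxes. Otc, Hgd and Tat, at 0.08, 0.11 and 0.17, held C/EBP-type matches and no GC box. GC boxes were in 3 of 6 promoters against 32.7% of all promoters, and C/EBP-type matches in 3 of 6 against 36.8%. Hpd, at 0.29, also held a GC box, and the GC box of Ass1 lies in an annotated exon of the gene.

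The libraries held 32669225 (wild type) and 25120790 (H222P) reads on genes. Levels are given as CPM, the counts-per-million unit after TMM scaling of library size, with exact Poisson intervals at 95%. A gene counted as measured at a mean of at least 1 CPM over both libraries, and as higher or lower at a ratio of at least 2-fold. All 10 cardiomyocyte markers examined were detected in both libraries. Their summed level was 24127 CPM in wild type and 12318 CPM in H222P. Their detection shows that heart RNA was present and cannot show whether RNA of other tissue was present too. The hepatocyte markers described below summed to 38.7 CPM in wild type and 6855 CPM in H222P. In RNA from whole hearts, fewer cells of a type and less RNA per cell cannot be told apart.

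Of the 9 genes, 6 had a mean of at least 1 CPM, and in 4 of these (Otc, Hgd, Cps1 and Ass1) the H222P level was at least 2-fold that of wild type. Asl and Fah lay within 2-fold and 0 were at least 2-fold lower. Over all 14716 measured genes, 5.95% were at least 2-fold higher and 4.35% at least 2-fold lower. Nothing is read from the comparison with these shares, because the genes were selected on this ratio and because Otc, Hgd and Cps1 reached 1 CPM through the H222P library alone. The other 3 genes, Arg1, Hpd and Tat, had 16 reads or fewer in each library. Nearest to the bounds lay Cps1 and Arg1 for the level (means of 1.80 and 0.383 CPM) and Ass1 and Asl for the ratio (2.99-fold and 1.69-fold). Without the bound on level, 6 of the 9 genes were at least 2-fold higher, against 17.4% of the 27300 genes with a read in either library.

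Otc (chromosome X, 10252305 to 10321024, mm10) encodes ornithine transcarbamylase, which joins carbamoyl phosphate to ornithine. Wild type had 0 reads of it and H222P 295, or 11.1 CPM (9.90 to 12.5). A wild-type count of 0 allows up to 3 reads, 0.0968 CPM, so the H222P level was at least 115-fold higher than that floor. Bounds written as "at least" use the 3-read floor for the gene without wild-type reads and leave out the counting error of its H222P reads. The exact 95% interval, which holds both errors, starts lower, at 93.0-fold for Otc, and its start is given beside each such bound. Cps1 (chromosome 1, 67123026 to 67231259), the carbamoyl phosphate synthetase that feeds Otc, had 17 and 81 reads, 0.549 CPM (0.320 to 0.878) and 3.06 CPM (2.43 to 3.80). Its level was 5.45-fold higher in the H222P library (3.28 to 10.0), and the intervals of its levels did not overlap. Both mitochondrial enzymes of the cycle were thus higher in the H222P library, Otc from a count of 0 and Cps1 from a low but detected level.

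Ass1 (chromosome 2, 31470207 to 31520672), argininosuccinate synthetase, had 83 wild-type and 213 H222P reads. These are 2.68 CPM (2.13 to 3.32) and 8.04 CPM (7.0 to 9.20), a 2.99-fold difference (2.32 to 3.92). Asl (chromosome 5, 130011258 to 130029247), argininosuccinate lyase, had 307 and 445 reads, 9.91 CPM (8.83 to 11.1) and 16.8 CPM (15.3 to 18.4). It was 1.69-fold higher (1.46 to 1.97). The enzymes that handle argininosuccinate were therefore plainly detected in the wild-type heart, and their ratios were the smallest among the 4 measured genes of the cycle.

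Arg1 (chromosome 10, 24915221 to 24927484), the cytosolic arginase that releases urea, had 5 wild-type and 16 H222P reads, 0.161 CPM (0.0524 to 0.377) and 0.604 CPM (0.345 to 0.981). Its ratio was 3.51-fold with an interval of 1.31 to 13.1, at a level under the bound of 1 CPM, and the intervals of the 2 levels overlapped. The 5 genes of the cycle together had 412 and 1050 reads, 13.3 CPM (12.0 to 14.6) and 39.6 CPM (37.3 to 42.1). The sum was 2.98-fold higher in the H222P library (2.66 to 3.35). Most of its wild-type reads came from Asl.

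Tat (chromosome 8, 109990437 to 109999803), tyrosine aminotransferase, had 2 wild-type reads and 1 H222P read, and no ratio is given because both counts are within the 3 reads a count of 0 allows. Hpd (chromosome 5, 123171807 to 123182727), hydroxyphenylpyruvate dioxygenase, had 1 and 16 reads, 0.0323 CPM (0.0008 to 0.180) and 0.604 CPM (0.345 to 0.981). The ratio of Hpd was 12.9-fold with an interval of 2.91 to 785. Hgd (chromosome 16, 37580153 to 37632020), homogentisate dioxygenase, had 1 and 188 reads, 0.0323 CPM (0.0008 to 0.180) and 7.10 CPM (6.12 to 8.19). Its log2 ratio was 7.20 (5.29 to 13.09), which rests on a single wild-type read. The first 3 enzymes of the pathway thus stood at different levels in the H222P library, with Tat not distinguishable from 0, Hpd at 0.604 CPM and Hgd at 7.10 CPM.

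Fah (chromosome 7, 84585159 to 84606722), fumarylacetoacetate hydrolase, had 240 wild-type and 292 H222P reads. These are 7.75 CPM (6.80 to 8.79) and 11.0 CPM (9.80 to 12.4), a 1.42-fold difference (1.20 to 1.70), the smallest ratio among the 6 measured genes. The tyrosine genes together had 244 and 497 reads, 7.87 CPM (6.92 to 8.93) and 18.8 CPM (17.2 to 20.5), and their sum was 2.38-fold higher (2.04 to 2.79). Fah supplied nearly all wild-type reads of this group and Hgd most of the difference.

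**Figure D2:**
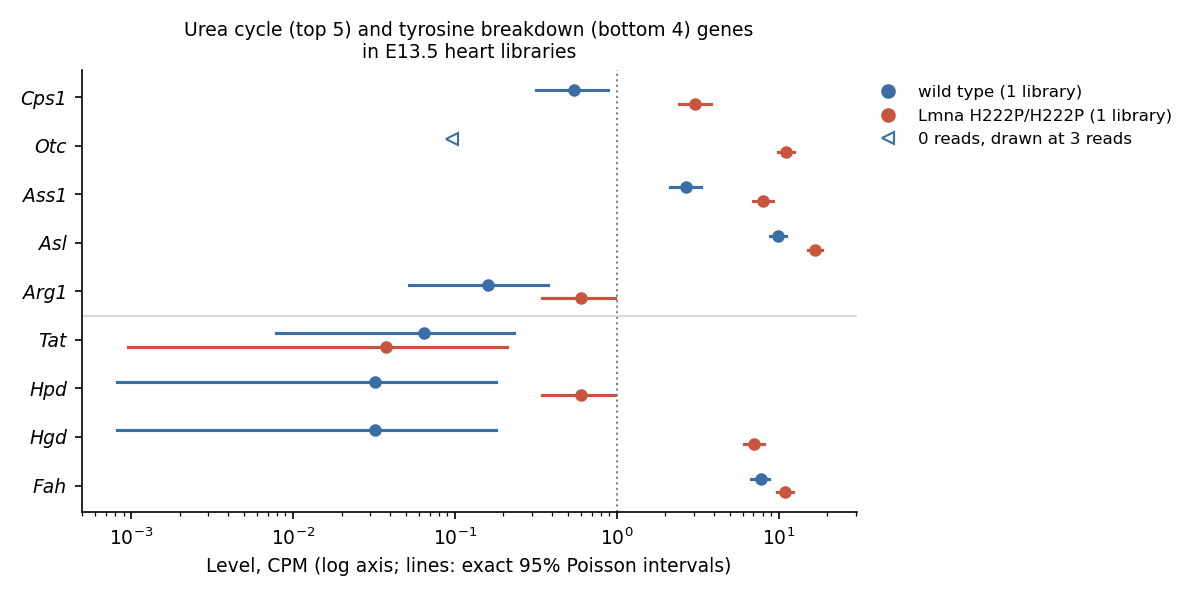
Level of each gene in the wild-type (blue) and the Lmna H222P/H222P library (red), in CPM on a log axis, with exact 95% Poisson intervals of the counts as lines; the open triangle stands for 0 reads and is drawn at 3 reads, and the dotted line marks 1 CPM. Asl, Fah and Ass1 were above 1 CPM in both libraries, Otc, Hgd and Cps1 in the H222P library alone, and Arg1, Hpd and Tat in neither.

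The 9 genes were grouped after their values were seen. The split follows the wild-type level, which is the denominator of the ratio, so a higher ratio in the group with few wild-type reads is built in. Ass1, Asl and Fah together had 630 wild-type and 950 H222P reads, a ratio of 1.76 (1.59 to 1.95). The other 6 genes together had 26 and 597 reads, from 0.839 CPM (0.548 to 1.23) to 22.5 CPM (20.8 to 24.4), and their ratio was 26.4 (18.1 to 41.5). Among these 6, Otc and Hgd held most of the H222P reads, Cps1, Arg1 and Hpd had between 16 and 81, and Tat had 1.

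Levels of different genes were compared per length, as CPM per kilobase of the principal transcript, written RPKM. In the wild-type library Fah, at 4.89 RPKM (4.29 to 5.55), and Asl, at 4.11 (3.66 to 4.59), stood highest and their intervals overlapped. Ass1 followed at 1.58 RPKM (1.26 to 1.96), apart from both neighbours. Arg1, Cps1, Tat, Hpd, Hgd and Otc were all at or below 0.109 RPKM, and the intervals of each overlapped those of the next one down.

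In the H222P library Asl and Fah, both at 6.96 RPKM, again stood highest. Otc, at 4.80 RPKM (4.27 to 5.38), Ass1, at 4.74 (4.13 to 5.42), and Hgd, at 4.17 (3.60 to 4.81), came next, and their intervals overlapped. Cps1, at 0.551 RPKM (0.437 to 0.684), Hpd, at 0.430, and Arg1, at 0.409, formed a lower group with overlapping intervals, and Tat, at 0.0159, was apart from all of them. Measured as a difference in RPKM between the libraries, H222P minus wild type, Otc led with 4.80, followed by Hgd (4.15), Ass1 (3.16), Asl (2.86) and Fah (2.07). With the union of all annotated exons as length, a choice made after seeing the data, Fah (4.97 RPKM) stood above Asl (3.48) in the H222P library and Otc fell to 2.63, below Ass1 (3.33) and Hgd (2.71). With that length the difference between the libraries was largest for Hgd (2.70), ahead of Otc (2.63). No interval was computed for these differences, so the order of Otc and Hgd is descriptive only.

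**Figure D3:**
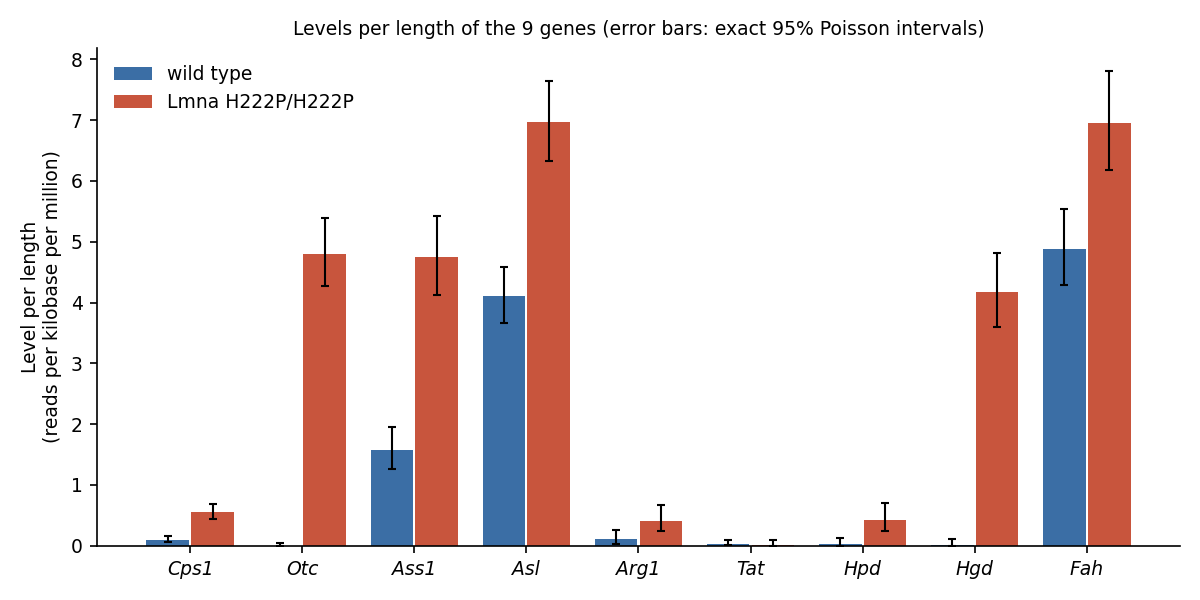
Level per length (RPKM, CPM per kilobase of the principal transcript) of each gene in the wild-type (blue) and Lmna H222P/H222P (red) library, with exact 95% Poisson intervals. In the H222P library Asl and Fah (6.96 each), Otc (4.80), Ass1 (4.74) and Hgd (4.17) stood well above Cps1 (0.551), Hpd (0.430), Arg1 (0.409) and Tat (0.0159).

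Hpd overlaps Psmd9 and Hgd overlaps an antisense transcript on the opposite strand, without shared exons, and reads were counted on the strand of the gene. Hpd also overlaps a long noncoding RNA, Gm26745, on its own strand, again without shared exons, and strand cannot separate reads of that pair. At most 4 reads of any of the 9 genes fell on the opposite strand in either library, both maxima (3 and 4 reads) being those of Arg1.

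The H222P library also differed in markers of other cells. Of 22 hepatocyte markers, 21 were measured and all 21 were at least 2-fold higher, with log2 ratios from 3.91 (Trf) to 10.78 (Ambp) and a median of 7.66. The summed level of all 22 was 38.7 CPM in wild type and 6855 CPM in H222P, and Fabp1 and Apoc3 had 0 wild-type reads. Against Alb, serum albumin, the H222P level per length was 0.451% for Asl and for Fah and 0.311% for Otc. It was 0.307% for Ass1, 0.270% for Hgd, 0.0357% for Cps1, and lower for Hpd, Arg1 and Tat. Intestinal epithelium also uses Cps1 and Otc: of 9 of its markers 2 were measured, and both were at least 2-fold higher. The summed level of all 9 was 3.23 CPM in wild type and 10.8 CPM in H222P, and Cdx1 and Guca2a had 0 reads in both. The 2 measured were Krt20, with 59 and 146 reads (log2 ratio 1.53, 1.09 to 2.00), and Fabp2. Fabp2 had 0 and 59 reads, at least 23.0-fold higher (interval from 18.1), and reached 1 CPM through the H222P library alone. Under the bound of 1 CPM, Muc2 had 13 and 6 reads, Lgals4 16 and 27, Vil1 8 and 17, Cdh17 4 and 22, and Cdx2 0 and 9. Of 8 kidney tubule markers, 7 had 0 reads in the H222P library, Cdh16 being the exception with 102. Erythroid markers were higher too (8 of 9 measured, summed levels of 217 and 1543 CPM). None of 10 cardiomyocyte markers was at least 2-fold higher and 5 were at least 2-fold lower. The part of these cells in the values of the 9 genes was not tested.

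Of 8 measured enzymes and carriers around the urea cycle, many of them used in other tissues too, 1 was higher and 0 were lower. Nags, which makes the activator of Cps1, rested on 2 wild-type and 28 H222P reads, with a log2 ratio of 3.74 (2.05 to 7.15) at a mean of 0.561 CPM. The mitochondrial ornithine carrier Slc25a15 had 592 and 712 reads (log2 ratio 0.49, 0.33 to 0.65), and the aspartate-glutamate carrier Slc25a13 had 2092 and 1906 (0.09, 0.00 to 0.18). Glud1, glutamate dehydrogenase, which releases ammonia from glutamate, was that gene, with 4954 and 8973 reads (log2 ratio 1.08, 1.03 to 1.13). The aspartate aminotransferases Got2, which had the highest mean CPM of the list though Glud1 was above it in the H222P library, and Got1 had log2 ratios of −0.08 and −0.53.

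Arginine and ornithine genes outside the cycle had 2 of 17 measured members higher and 0 lower, with a median log2 ratio of 0.25. Arg2, the mitochondrial arginase of tissues other than liver, had 21 and 7 reads, 0.678 and 0.264 CPM, under the bound for a measured gene, with a log2 ratio of −1.29 (−2.84 to −0.07), and its exons overlap Vti1b and an antisense transcript on the opposite strand. The higher members were Nos1, the neuronal nitric oxide synthase (log2 ratio 2.39, 1.61 to 3.34), and Agmat, agmatinase (1.89, 1.13 to 2.77), at 69 and 58 H222P reads. Nos3, the endothelial nitric oxide synthase supplied with arginine by Ass1 and Asl, gave 1512 and 718 reads and a log2 ratio of −0.85 (−0.98 to −0.72). Nos3 and Ass1 thus had ratios of opposite sign. The median log2 ratio of 8 endothelial markers was −0.66, and the part of endothelial cells in the ratio of Nos3 was not tested. Nos2, the inducible synthase, had the lowest log2 ratio among the measured genes of the list (−0.98, −1.75 to −0.28). Ornithine decarboxylase (Odc1), which had the highest mean CPM of the list though Oat was above it in the wild-type library, and Cad, which makes carbamoyl phosphate for pyrimidines in the cytosol, had log2 ratios of 0.68 (0.63 to 0.73) and 0.61 (0.54 to 0.69).

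Genes of tetrahydrobiopterin supply and the other enzymes near tyrosine breakdown had 1 of 7 measured members higher and 0 lower. The higher gene was Gchfr, the feedback regulator of tetrahydrobiopterin synthesis, with 55 and 105 reads (log2 ratio 1.15, 0.68 to 1.66). Gstz1, which isomerises the product of Hgd before Fah acts, had 1123 and 1444 reads (0.59, 0.48 to 0.70), close to the log2 ratio of Fah (0.51). Qdpr, which recycles tetrahydrobiopterin and had the highest mean CPM of the list, just above Gstz1, had a log2 ratio of 0.04 (−0.07 to 0.16). Fahd1, a mitochondrial relative of Fah, was the lowest of the list at −0.62 (−0.77 to −0.48).

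In tryptophan breakdown, which runs through kynurenine, 3 of 7 measured genes were higher and 0 lower: the kynurenine hydroxylase Kmo (8 and 108 reads, log2 ratio 3.90, 2.95 to 5.23), Acmsd (11 and 194 reads, 4.31, 3.50 to 5.39) and Aadat (10 and 77 reads, 3.11, 2.22 to 4.29). Tdo2, the hepatic enzyme that opens the pathway, had 38 and 33 reads and a log2 ratio near 0 (0.03, −0.70 to 0.73). Kyat3 and Kyat1, aminotransferases used in many tissues, had log2 ratios of 0.32 and −0.23. Haao and the histidine enzyme Uroc1 had 0 wild-type reads and 25 and 22 H222P reads, at least 9.75-fold and 8.58-fold higher (intervals from 7.36 and 6.41), at means under 1 CPM. Ftcd was the 1 measured gene of 4 in histidine breakdown, with 108 and 206 reads (1.15, 0.82 to 1.51).

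Glycine, serine and threonine breakdown had 4 of 13 measured genes higher and 0 lower. Gldc, the decarboxylase of the glycine cleavage system, had 124 and 546 reads (log2 ratio 2.36, 2.08 to 2.66), while Dld, the subunit that system shares with pyruvate dehydrogenase, had 14905 and 9599 (−0.41). Dmgdh, which oxidises dimethylglycine, had 7 and 127 reads (4.31, 3.32 to 5.75), and Gcat 35 and 61 (1.02, 0.41 to 1.67). Agxt2, a mitochondrial aminotransferase, had 0 and 57 reads, at least 22.2-fold higher (interval from 17.5). Srr, serine racemase, had the lowest log2 ratio at −0.51, but had 1154 and 1106 reads on the other strand.

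Methionine and cysteine breakdown had 4 of 14 measured genes higher and 0 lower. Bhmt, which remethylates homocysteine in liver, had 0 and 197 reads, at least 76.8-fold higher (interval from 61.9), and its close relative Bhmt2 had 3 and 87 (4.87, 3.49 to 7.39). The transsulfuration enzymes Cbs and Cth had 32 and 75 reads (1.44, 0.84 to 2.10) and 135 and 568 reads (2.30, 2.03 to 2.58). Mat2a, the methionine adenosyltransferase of non-hepatic tissues, had a log2 ratio of 0.09 (0.04 to 0.14), and Mat1a, its hepatic counterpart, had 39 and 40 reads (0.26, −0.41 to 0.94). Ahcy was the lowest at −0.43. In lysine and proline breakdown 4 of 8 genes were higher and 0 lower: Aass, which opens lysine breakdown (62 and 473 reads, 3.15, 2.77 to 3.56), Dhtkd1, of the same route (1.05, 0.68 to 1.43), Hoga1, of hydroxyproline breakdown (2.44, 1.92 to 3.02), and Prodh2, the hydroxyproline dehydrogenase, with 0 and 204 reads, at least 79.5-fold higher (interval from 64.1). Aldh7a1, the most abundant of that list, was lowest at −0.18.

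Branched-chain amino acid breakdown, which begins mainly outside the liver and is active in muscle, had 0 of 22 measured genes higher and 1 lower. Its median log2 ratio was −0.26, and 19 of the 22 ratios were below 0. Mcee, methylmalonyl-CoA epimerase, was at least 2-fold lower (986 and 388 reads, −1.12, −1.29 to −0.95). The most abundant member, Acat1, had a log2 ratio of −0.76 (−0.80 to −0.72), and Bcat1, the cytosolic aminotransferase, had the highest at 0.53 (0.35 to 0.72). Mut of this list was not analysed here.

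Over the 9 pathway lists together, 20 of 97 measured genes (20.6%) were at least 2-fold higher and 1 (1.03%) at least 2-fold lower. Over all measured genes these shares were 5.95% and 4.35%. Nothing is read from this comparison either, because the lists were chosen with earlier results of these data known. Of the higher genes, Nos1, Agmat, Kmo, Acmsd, Aadat, Agxt2, Dmgdh, Bhmt, Bhmt2 and Prodh2 reached 1 CPM through the H222P library alone. The median log2 ratio of the 97 genes was 0.23, beside −0.01 over all measured genes. Of the 114 listed genes in the tables, 10 were without a wild-type read, and 2 of these (Ido1 and Sds) had 0 reads in both libraries. The genes nearest in ratio to the median of the 9 enzymes, a log2 ratio of 1.81 over 2 libraries, were Crabp2 (1.80), Spire1 (1.79), Gfra1 (1.83), Nell2 (1.78) and Slc6a9 (1.84), among 11025 protein-coding genes outside the lists with a mean of at least 5 CPM. That median is the ratio of Arg1, which rests on 5 and 16 reads. It was taken over all 9 genes, including Arg1, Hpd and Tat under the bound of 1 CPM. Over the 6 measured genes the median log2 ratio was 2.01.

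**Figure D4:**
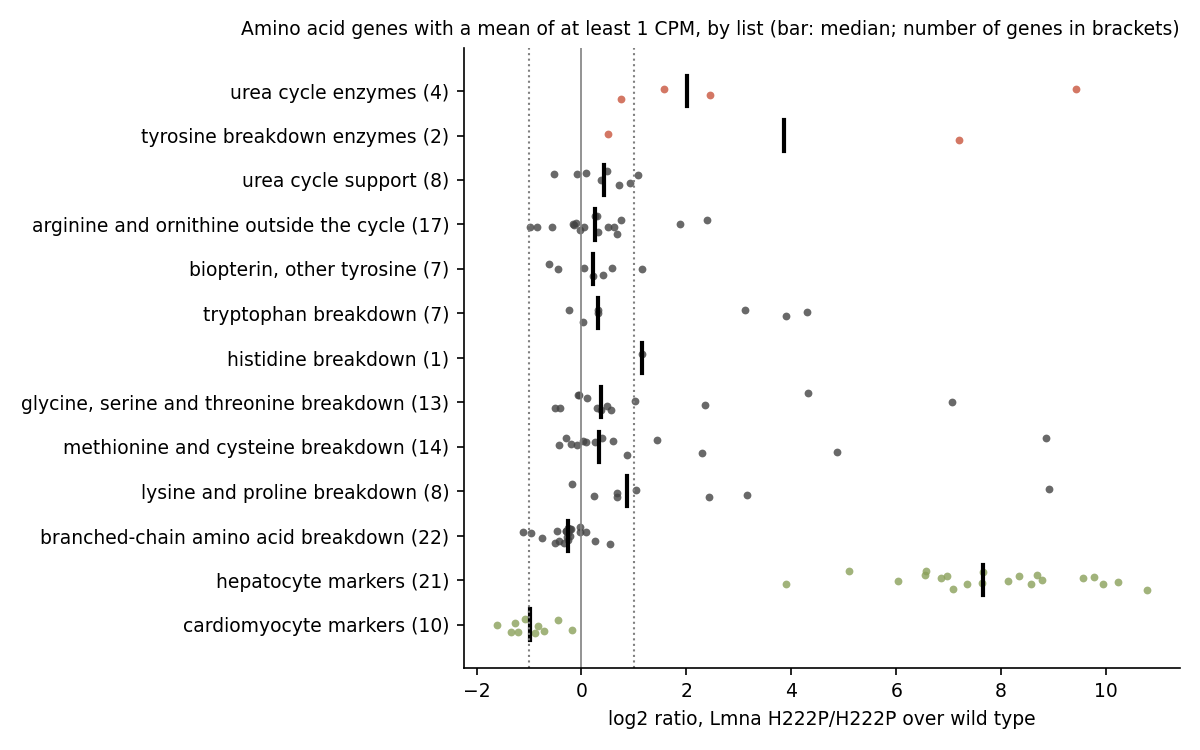
Log2 ratio, Lmna H222P/H222P over wild type, of each gene with a mean of at least 1 CPM (points), by list, with list medians as bars, the number of genes in brackets and dotted lines at 2-fold. Hepatocyte markers lay between 3.91 and 10.78, each amino acid list other than histidine and branched-chain breakdown held genes both within 2-fold and at least 2-fold higher, and branched-chain genes lay between −1.12 and 0.53.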

How the data were processed

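RNA was measured in 2 libraries of E13.5 mouse hearts, 1 per genotype, with groups taken from the genotype in the labels. The authors deposited whole-number read counts for each gene that had not been normalized. Per the submitters' processing notes, the tools were STAR, DESeq and HTSeq on build mm10 (versions and the gene annotation: not given in the sources used here). The column counting the reverse strand was used, since it held 19.3 and 20.5 times the reads of the other strand. The 4 summary entries, 17.2% and 18.0% of reads, were left out.

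Counts were scaled with TMM factors (0.948 and 1.05; edgeR 4.0.16, R 4.3.3). Log2 ratios used a prior count of 0.5. Their intervals are exact Clopper-Pearson intervals of the share of reads at 95%, and levels carry exact Poisson intervals (scipy 1.17.1, Python 3.11.15). Without molecular identifiers, reads can be copies of the same molecule, so intervals cover counting error only and can be too narrow. A count of 0 was given a floor of 3 reads per library (0.0968 and 0.113 CPM). Coordinates and lengths come from GENCODE mouse release M21 (GRCm38, the mm10 assembly). Ratio and interval steps were tested on counts drawn with known changes.

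The 9 genes and all gene lists were chosen with earlier results of these data known. Named are the 9 genes, their pathway neighbours, in each pathway list the most abundant, highest, lowest and all beyond 2-fold, and extreme or absent cell markers. Mat1a, Tdo2, Haao, Uroc1, Oat and Alb were named after their values were seen. Tried as alternatives were total counts, size factors from DESeq2 1.42.0, TMM without hepatocyte, erythroid and globin genes, unstranded counts, a prior count of 5, no filter, a 5 CPM filter and thinning of the wild-type library. Mut, the marker Ahsp and 1 gene first listed beside the tyrosine genes were not analysed or are not reported here. Macrophage and endothelial markers had 0 of 8 measured genes each beyond 2-fold. Their median log2 ratios were −0.36 and −0.66, with 8 and 7 of the 8 ratios below 0.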

Additional observations from a re-analysis of the deposited data

How the results depend on the processing

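No paired analysis was possible because each genotype has 1 library. The count of 4 genes at least 2-fold higher was the same with DESeq2 size factors, total counts, TMM without hepatocyte, erythroid and globin genes, unstranded counts, a prior count of 5 and thinning. It was 6 of 9 without a filter on low counts. With a mean of at least 5 CPM it was 2 (Otc and Ass1), and Asl and Fah also reached that level. Over all genes, 4746 were higher and 4038 lower of 27300 without a filter. At 5 CPM these were 394 and 333 of 11744, against 876 and 640 of 14716 at 1 CPM. Total-count scaling moved the median log2 ratio of all genes from −0.01 to 0.15 and the share of higher genes among those beyond 2-fold from 57.8% to 70.6%. No ratio of the 6 measured genes changed sign. A prior count of 5 lowered the log2 ratios of Otc and Hgd to 6.13 and 5.23, which follows from adding 5 reads to counts of 0 and 1. Asl lay between 0.73 and 0.91, Fah between 0.41 and 0.66, Ass1 between 1.54 and 1.73 and Cps1 between 2.19 and 2.60 under the scaling, strand, prior and thinning alternatives. The tryptophan list median of 0.32 was 1.92 without a filter and 0.05 at 5 CPM. The histidine median went from 1.15 to 1.66 without a filter. At 5 CPM the methionine and cysteine median went from 0.33 to 0.09. Total counts moved the branched-chain median from −0.26 to −0.11 and that of arginine and ornithine genes from 0.25 to 0.40. Depth limits Arg1, Hpd and Tat, with at most 16 reads.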
